A study of Mus musculus with 8 samples.

Results

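Serpina1a, Serpina1b, Serpina1c, Serpina1d and Serpina1e are the mouse paralogs of the gene for alpha-1-antitrypsin, and their messages were followed through 8 liver libraries. The members were the 5 genes of that name among 18095 genes of the count table, found through their Ensembl identifiers in the GRCm38 annotation, and all 5 were counted in every library. The family was picked because the fitted level of Serpina1e was lower in one genotype than in the other in these same libraries, so the genotype differences of the 5 members are given as descriptions without a test.

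Alpha-1-antitrypsin is a secreted serine protease inhibitor, a serpin, made in bulk by hepatocytes and released into plasma. It presents an exposed reactive centre loop as bait; the protease cleaves the bait and is trapped in a covalent complex. Its best known target is neutrophil elastase, and its loss leaves the lung unprotected, while misfolded forms build up in the liver cell. Humans carry one such gene, whereas mice carry a tandem family whose gene number varies among inbred strains and whose products differ mainly in the bait.

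RNA came from livers of HFD WT males (n = 4) and HFD Inpp4b-/- males (n = 4), both on a high-fat diet (HFD) and 12 weeks old by the labels. Inpp4b encodes a phosphatase that acts on phosphoinositides, and the allele is a knockout of the whole animal. The labels give a C57BL/6 background for all 8 animals, whereas the methods of the study say that the knockout was bred into FVB. The methods describe the libraries as coming from separate mice, and the sample titles carry a separate number for each, so each library is taken as 1 animal.

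The libraries held 25893430 to 31427831 gene counts each in the HFD WT group and 32738435 to 36662531 in the HFD Inpp4b-/- group. Counts of Inpp4b itself were 6, 20, 5 and 8 in HFD WT replicates 1 to 4 and 33, 10, 9 and 14 in HFD Inpp4b-/- replicates 1 to 4. The libraries labelled HFD Inpp4b-/- thus had no fewer counts of the targeted gene, although counts over a whole gene also take in reads from outside a deleted part, and every direction below rests on the labels. Of 14866 genes tested with edgeR's quasi-likelihood test, 174 were called at an adjusted p under 0.1 and a fold over 1.3. In the libraries labelled HFD Inpp4b-/- 82 of these were higher and 92 lower. That count ran from 53 without HFD Inpp4b-/- replicate 2 to 345 without HFD WT replicate 2. Summed hepatocyte markers, led by Alb, came to 78068 to 83296 CPM (counts scaled to a library of 1000000) in HFD WT and 80655 to 100904 CPM in HFD Inpp4b-/-, and none of the 7 measured was called. The 2 neutrophil markers in the table together reached at most 4.49 CPM in any library. In whole liver, fewer cells of a type and less RNA per cell cannot be told apart.

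The 5 genes lie in a row on the minus strand of chromosome 12 (GRCm38). Serpina1b (ENSMUSG00000071178) spans chr12:103728156-103830373, and its long span holds Serpina1d (ENSMUSG00000071177, chr12:103763594-103773592) without a shared exon base. Serpina1a (ENSMUSG00000066366) follows at chr12:103853589-103863562. Serpina1c (ENSMUSG00000079015) lies at chr12:103894926-103904887 and shares exon bases with the antisense gene B430119L08Rik, whose own level was 20.3 CPM in HFD WT and 20.9 CPM in HFD Inpp4b-/- on average. Serpina1e (ENSMUSG00000072849) ends the row at chr12:103946931-103958975.

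The coding sequences of the 5 members are 1239 bases each and align without a gap. Pairs were 96.29 to 98.47% identical, with Serpina1a and Serpina1c the closest pair at 19 differing bases and Serpina1e 43 to 46 bases from every other member. Of the 86 coding positions at which the members differ, 18 fall in 63 bases of exon 5 of the transcripts used, coding bases 1099 to 1161, which encode the reactive centre loop. These bases are shown because the bait is what sets the members apart; they were read from the GENCODE transcripts of the C57BL/6J reference, not from the animals studied, and capitals mark the positions at which the members differ.
Serpina1a, chr12:103853756-103853818: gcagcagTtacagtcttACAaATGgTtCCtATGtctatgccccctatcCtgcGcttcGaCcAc
Serpina1b, chr12:103728323-103728385: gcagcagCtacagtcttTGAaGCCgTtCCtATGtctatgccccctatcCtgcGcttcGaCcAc
Serpina1c, chr12:103895093-103895155: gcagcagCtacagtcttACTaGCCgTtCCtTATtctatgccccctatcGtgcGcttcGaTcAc
Serpina1d, chr12:103763761-103763823: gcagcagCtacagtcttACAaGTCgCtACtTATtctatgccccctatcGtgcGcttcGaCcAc
Serpina1e, chr12:103947099-103947161: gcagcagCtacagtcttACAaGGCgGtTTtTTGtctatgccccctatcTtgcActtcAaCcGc
Codon 377 is the bait position itself, just before the bond that the protease cuts, and codon 378 after it is tct in all 5 members. Codon 377 is atg in Serpina1a and Serpina1b, the codon of the human bait, tat in Serpina1c and Serpina1d, and ttg in Serpina1e alone. By this codon the family falls into 3 kinds, and Serpina1e is the single member of its kind.

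Near identity matters for the counts. Of the 1090 stretches of 150 bases (the read length) in each coding sequence, 579 of Serpina1a and 579 of Serpina1c had an exact copy in another member, or 53.1% of each. The share was 24.2% for Serpina1b, 23.0% for Serpina1d and 9.91% for Serpina1e. As a share of its own stretches, Serpina1e thus had the fewest exact copies, and Serpina1a and Serpina1c the most. With 1 differing base allowed, the gap to Serpina1d and Serpina1b was smaller. The shares were then 27.5% for Serpina1e, 29.6% for Serpina1d, 36.3% for Serpina1b and 57.1% for each of Serpina1a and Serpina1c. All of these are shares of sequence, not of reads. How the counting treated such reads is not given in the sources used here, so the split among members is uncertain.

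Serpina1e carried the largest difference between genotypes among the 5 members. Its level was 6376, 5824, 11586 and 6404 CPM in HFD WT replicates 1 to 4 and 1274, 1101, 273.4 and 243.6 CPM in HFD Inpp4b-/- replicates 1 to 4. The groups did not overlap, and the lowest HFD WT library was 4.57 times the highest HFD Inpp4b-/- library. HFD WT replicate 3 stood far above the other 3 HFD WT libraries, and HFD Inpp4b-/- replicates 3 and 4 stood well below replicates 1 and 2. The means were 7547 ± 2705 CPM and 723.1 ± 541.2 CPM (SD, n = 4 each), a 10.4-fold lower level and a log2 fold change of -3.38 (standard error 0.57). Without HFD Inpp4b-/- replicate 1 the log2 ratio of the means was -3.81, and without replicate 4 it was -3.10.

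Serpina1d, which shares the tat bait codon with Serpina1c, was the second member with a large difference. It stood at 1258, 2137, 2120 and 1740 CPM in HFD WT and at 1098, 1045, 374.1 and 239.3 CPM in HFD Inpp4b-/-. The groups did not overlap, but HFD WT replicate 1 was only 1.15 times HFD Inpp4b-/- replicate 1, and the same pair of low libraries, HFD Inpp4b-/- replicates 3 and 4, stood out. The log2 fold change was -1.40 (standard error 0.44), from 1813 ± 413 CPM to 689 ± 445 CPM (SD, n = 4 each).

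The atg members differed less. Serpina1a was at 1933, 2211, 2225 and 2619 CPM in HFD WT and at 1695, 1628, 1761 and 1361 CPM in HFD Inpp4b-/-. Serpina1b was at 4281, 4860, 4546 and 4520 CPM in HFD WT and at 4041, 3668, 3964 and 3865 CPM in HFD Inpp4b-/-. For both, every HFD Inpp4b-/- library lay below every HFD WT library by a narrow margin, with the lowest HFD WT library 1.10 times the highest HFD Inpp4b-/- library for Serpina1a and 1.06 times for Serpina1b. The log2 fold changes were -0.48 (standard error 0.12) for Serpina1a and -0.23 (standard error 0.10) for Serpina1b.

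Serpina1c was the one member whose groups overlapped. Its level was 1219, 974.5, 999 and 1191 CPM in HFD WT and 961.7, 972, 1428 and 890.4 CPM in HFD Inpp4b-/-. HFD Inpp4b-/- replicate 3, among the lowest libraries for Serpina1d and Serpina1e, was the highest of all 8 for Serpina1c. The log2 fold change was -0.04 (standard error 0.16), and the log2 ratio of the means was -0.22 without HFD Inpp4b-/- replicate 3 and 0.03 without replicate 4.

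**Figure D1:**
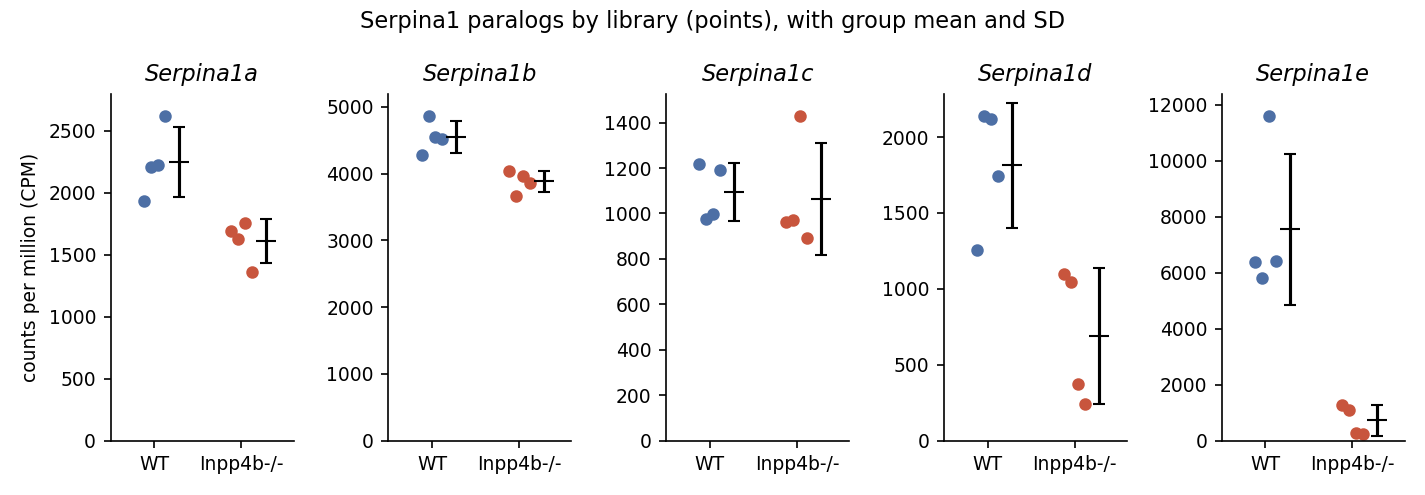
Level of each Serpina1 paralog in CPM (y axis, from 0, its own scale in each panel) in the 4 HFD WT and 4 HFD Inpp4b-/- libraries, with points for libraries and a bar for the mean and SD. Serpina1e lay in wholly separate ranges, 5824 to 11586 against 243.6 to 1274 CPM, whereas the Serpina1c ranges overlapped.

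Of the 5 members, 1 was called (Serpina1e) against 1.17% of all genes tested, and 4 had ranges that did not overlap and lay lower in HFD Inpp4b-/- against 4.09% of all genes tested. Nothing is read from these counts, because the family was picked by this contrast. The choice of tool changed the count: 3 of the 5 members passed the same thresholds with DESeq2 (Serpina1a, Serpina1d and Serpina1e), where 4.04% of all genes did.

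The family total was lower in every library labelled HFD Inpp4b-/-. It was 15068, 16006, 21475 and 16474 CPM in HFD WT and 9070, 8414, 7801 and 6599 CPM in HFD Inpp4b-/-. The means were 17256 ± 2873 and 7971 ± 1051 CPM (SD, n = 4 each), 2.17-fold lower, and the family took 1.45 to 2.19% of all gene counts in HFD WT and 0.641 to 0.932% of those in HFD Inpp4b-/-. Of the 9285 CPM by which the mean total fell short in HFD Inpp4b-/-, Serpina1e made up 73.5%, Serpina1d 12.1%, Serpina1b 7.18%, Serpina1a 6.85% and Serpina1c 0.355%. With Serpina1e left out of the sum, the total was 9708 ± 688 CPM in HFD WT and 7248 ± 627 CPM in HFD Inpp4b-/-, 1.34-fold lower, and the groups still did not overlap. The sum of Serpina1a, Serpina1b and Serpina1c was 7895 ± 383 CPM in HFD WT and 6559 ± 467 CPM in HFD Inpp4b-/-. The sum of Serpina1d and Serpina1e was 6.63-fold lower.

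The make-up of the family differed along with its total. Serpina1e was 42.3, 36.4, 54.0 and 38.9% of the family's counts in HFD WT and 14.1, 13.1, 3.50 and 3.69% in HFD Inpp4b-/-, as shares that are not adjusted for length. Serpina1b was 21.2 to 30.4% of the counts in HFD WT and 43.6 to 58.6% of those in HFD Inpp4b-/-. Serpina1d took 8.35 to 13.4% of the counts in HFD WT and 3.63 to 12.4% of those in HFD Inpp4b-/-, so that its share overlapped between the groups while its level did not. The shares of Serpina1a and Serpina1c were higher in every HFD Inpp4b-/- library, as shares of a smaller total.

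**Figure D2:**
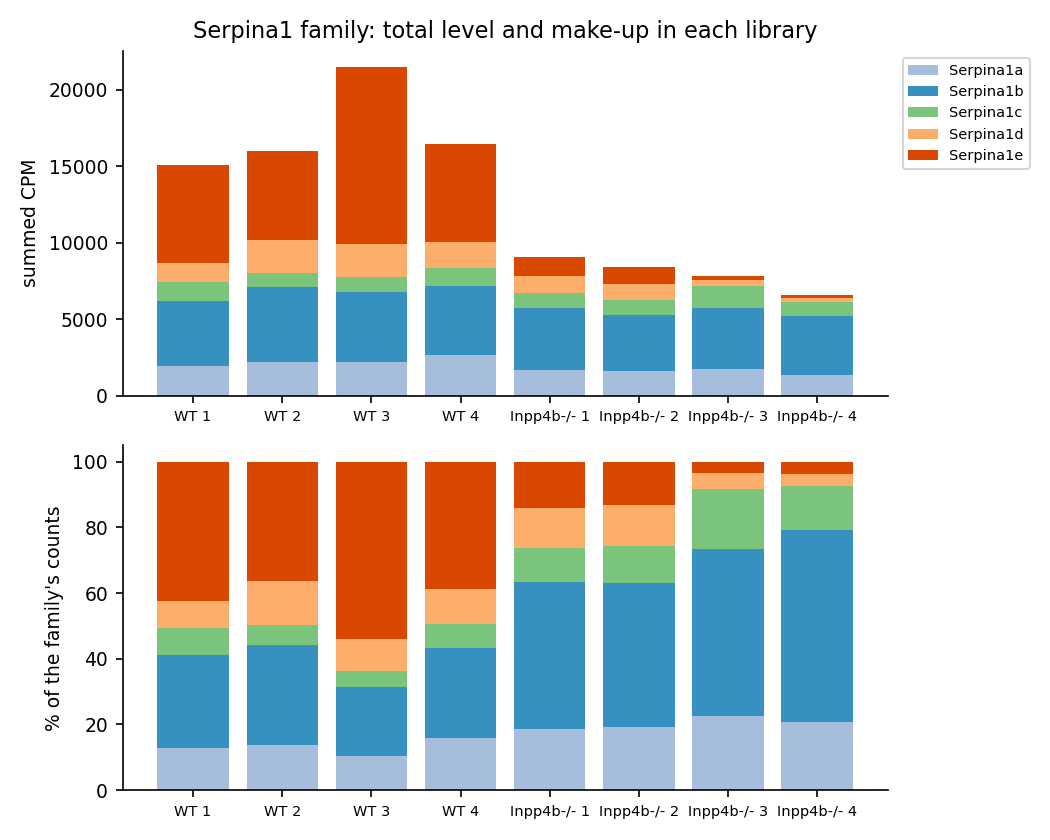
Stacked bars of the 5 paralogs in each library, as summed CPM (upper panel) and as a percentage of the family's counts (lower panel). The Serpina1e segment took 36.4 to 54.0% of the counts in the HFD WT libraries and 3.50 to 14.1% in the HFD Inpp4b-/- libraries.

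Levels were set side by side between members only per length, as CPM per kilobase of exon. This does not correct for sequence that members share. Of the 150-base stretches, 53.1% of Serpina1a and of Serpina1c had an exact copy in another member, against 9.91% of Serpina1e. With 1 differing base allowed, these shares were 57.1% and 27.5%. How far that shifts the order and ranks below was not tested. In HFD WT Serpina1e stood first in all 4 libraries at 4668 ± 1673 CPM per kb, followed by Serpina1b at 1885 ± 98.4, Serpina1d at 1301 ± 296, Serpina1a at 1227 ± 154 and Serpina1c at 805 ± 93.4 CPM per kb (SD, n = 4). Serpina1d and Serpina1a changed places between libraries and did not differ beyond their spread, while the other neighbours in this order did not overlap. In HFD Inpp4b-/- Serpina1b stood first in all 4 libraries at 1609 ± 66.9 CPM per kb. It was followed by Serpina1a at 880 ± 96.0, Serpina1c at 781 ± 181, Serpina1d at 494 ± 320 and Serpina1e at 447 ± 335 CPM per kb, and no neighbouring pair after Serpina1b was separated by its ranges. Ranked among all 18095 genes by mean CPM per kb, Serpina1e stood 14th in HFD WT and 114th in HFD Inpp4b-/-, and Serpina1d 48th and 107th. Serpina1b stood 36th and 34th, Serpina1a 52nd and 62nd, and Serpina1c 70th and 69th, so these 3 kept close to their places.

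**Figure D3:**
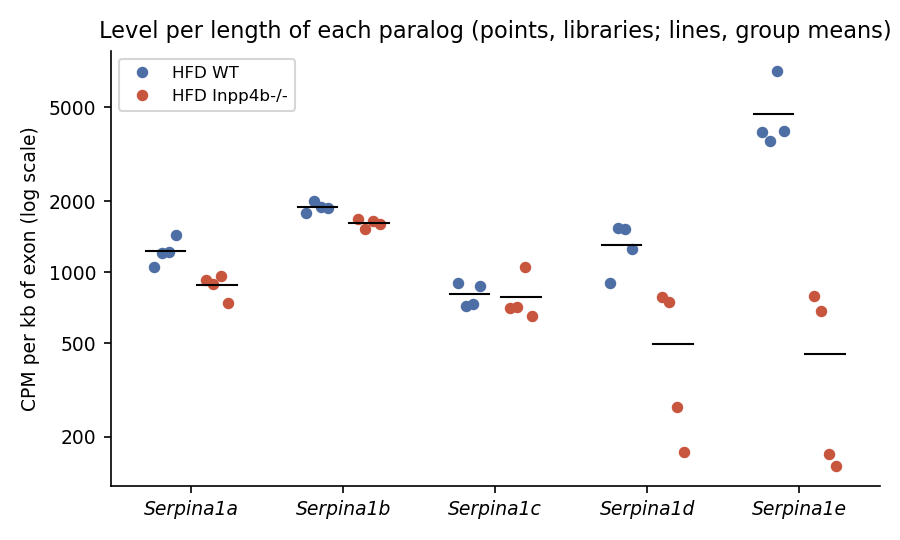
Level of each paralog in CPM per kb of exon (log axis), with points for libraries and lines for group means, HFD WT in blue and HFD Inpp4b-/- in red. Serpina1e had the highest mean in HFD WT (4668) and the lowest in HFD Inpp4b-/- (447), and Serpina1b led in the latter (1609).

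Serpina1d and Serpina1e varied together, also within a genotype. In HFD Inpp4b-/- both were higher in replicates 1 and 2 than in replicates 3 and 4, and the highest library was 4.59 times the lowest for Serpina1d and 5.23 times for Serpina1e. Over the same 4 libraries Serpina1b spread by only 1.10 times. The split was not particular to these members, because over the whole count table the same libraries were most alike. Chi-square per degree of freedom was 29.7 between HFD Inpp4b-/- replicates 1 and 2 and 46.75 between replicates 3 and 4. Across these pairs it was 58.04 to 87.55. The part of this split in the correlation below was not tested. Pearson's r between Serpina1d and Serpina1e over the 8 libraries, on log2(CPM + 0.1), was 0.937, and 0.918 after the mean of each genotype was subtracted. These are descriptions over 2 separate genotype groups of 4 libraries, and no test of the correlation was run. For the other pairs r after that subtraction ran from -0.367 (Serpina1c and Serpina1e) to 0.476 (Serpina1a and Serpina1d). The ratio of Serpina1e to Serpina1d counts was 2.73 to 5.47 in the HFD WT libraries and 0.731 to 1.16 in those of HFD Inpp4b-/-, so Serpina1e differed by more than Serpina1d did in every pairing of libraries across the groups.

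**Figure D4:**
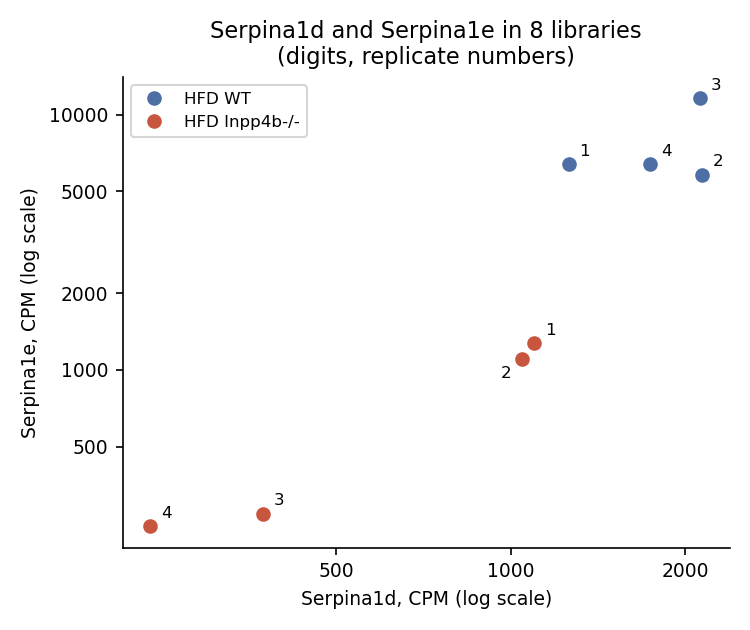
Serpina1e (y axis) against Serpina1d (x axis), both in CPM on log axes, with 1 point a library and digits for replicate numbers. HFD Inpp4b-/- replicates 3 and 4 lay lowest on both axes, and HFD WT replicate 1 lay close to HFD Inpp4b-/- replicates 1 and 2 on the Serpina1d axis (1258 CPM) and far above them on the Serpina1e axis (6376 CPM).

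The genes whose pattern was most like that of Serpina1e were named by Pearson's r over the 8 libraries among the 11690 genes that averaged 50 or more counts, as a description. They were 5033406O09Rik, a long non-coding RNA at chr12:111941991-111944484 (r = 0.981), Txnrd1 (thioredoxin reductase), Dcaf12, the pseudogene Rpl9-ps7 and Fnbp1l (r = 0.954 for the last). 5033406O09Rik stood at 5.12, 5.45, 6.67 and 6.60 CPM in HFD WT and at 2.03, 1.94, 0.290 and 0.421 CPM in HFD Inpp4b-/-, so that replicates 3 and 4 were again the lowest. The most opposite were Minos1 (r = -0.988) and Ndufa13, both of mitochondria, Tecr (fatty acid elongation), mt-Tp (mitochondrial transfer RNA) and B3gnt8 (r = -0.978). After genotype means were subtracted, the highest included Sugct (r = 0.981), Lonp2 (the peroxisomal Lon protease), Trim56 and Ecpas (r = 0.964). Lonp2 was at 323.1 to 376.4 CPM in HFD WT and at 571.7, 588.5, 449.8 and 400.8 CPM in HFD Inpp4b-/-, higher rather than lower in the latter group, and its 2 lower libraries there were also replicates 3 and 4.

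The promoters of the 5 members are nearly as alike as their coding sequences. RefSeq sequences from 250 bases before to 50 bases after each start site (GRCm38.p6) were matched for all 5, and pairs were 91.6 to 97.5% identical over their shared stretch. Serpina1e was closest to Serpina1b (97.5%), and the lowest identity was between Serpina1c and Serpina1d. The 100 bases printed end before the start site of every member and show how little sets the promoter of Serpina1e apart from the rest; all are on the minus strand, and capitals mark the 10 positions at which members differ.
Serpina1a, chr12:103863625-103863724: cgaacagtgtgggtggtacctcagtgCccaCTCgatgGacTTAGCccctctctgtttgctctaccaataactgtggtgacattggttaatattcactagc
Serpina1b, chr12:103738200-103738299: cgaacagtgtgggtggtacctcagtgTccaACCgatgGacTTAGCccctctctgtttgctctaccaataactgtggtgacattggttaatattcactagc
Serpina1c, chr12:103904962-103905061: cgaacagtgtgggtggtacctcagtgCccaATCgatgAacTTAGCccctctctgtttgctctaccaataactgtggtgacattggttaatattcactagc
Serpina1d, chr12:103773634-103773733: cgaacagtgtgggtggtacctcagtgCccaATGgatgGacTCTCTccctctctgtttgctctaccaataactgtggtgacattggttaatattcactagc
Serpina1e, chr12:103956960-103957059: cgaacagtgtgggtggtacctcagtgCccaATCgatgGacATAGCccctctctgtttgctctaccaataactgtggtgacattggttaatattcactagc
Letters searched on both strands were TTGCNNAA (C/EBP), TATAAA (the TATA box) and TTCNNNGAA (STAT). TTGCNNAA was found in 4 members and not in Serpina1c (10.8% of all promoters). It began at -161 from the start site in Serpina1b, -149 in Serpina1d and -211 in Serpina1e, but at 24, past the start site, in Serpina1a. The windows were set from the start site of each member and do not cover the same aligned bases in full. TATAAA and TTCNNNGAA were in none of these windows, against 13.6% and 8.29% of all promoters. These are matches of letters and do not show binding.

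Genes next to the family differed in both directions. Of 76 annotated genes starting within 1 Mb of the row, 38 were in the table and 34 were tested, of which 1 was called higher and 1 lower. Their median log2 fold change was -0.13, beside 0.00 over all genes tested. Serpina6, which encodes the plasma carrier of corticosteroids and lies 70.9 kb from the nearest member, was at 196.8, 265.4, 213.4 and 182.7 CPM in HFD WT and at 364.1, 391.8, 351.5 and 425 CPM in HFD Inpp4b-/-. It rose by 0.84 on the log2 scale (standard error 0.13; edgeR's adjusted p = 0.0237), without overlap between the groups. Serpina12, which encodes the adipokine vaspin and lies 69.8 kb beyond Serpina1e, was at 131.9, 53.5, 84.2 and 55.9 CPM in HFD WT and at 9.79, 20.1, 20.7 and 35.9 CPM in HFD Inpp4b-/-. It fell by 1.91 on the log2 scale (standard error 0.40; edgeR's adjusted p = 0.0804), a call that was lost without any one of 5 libraries (HFD Inpp4b-/- replicates 1 to 3 and HFD WT replicates 1 and 3; adjusted p up to 0.212). Serpina11, 21.3 kb from Serpina1e and nearer to it than Serpina12, was not called (log2 fold change 0.74, edgeR's adjusted p = 0.378). Serpina5, an inhibitor of activated protein C and a further neighbour, was at 1.25, 0.441, 0.303 and 0 CPM in HFD WT and at 1.83, 1.497, 4.63 and 3.09 CPM in HFD Inpp4b-/-, low levels that did not overlap. Its log2 fold change was 2.46, and 3.41 without HFD WT replicate 1; edgeR did not call it (adjusted p = 0.213) and DESeq2 did (adjusted p = 0.0258).

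Inside the span of Serpina1b lies Gm8893, an expressed pseudogene of the family (chr12:103817856-103822243) whose annotated transcript was 96.1 to 98.6% identical to the coding sequences of the members, nearest to Serpina1a. It was at 576.1, 192.3, 162.8 and 152.5 CPM in HFD WT and at 434.5, 280.8, 828.6 and 553.5 CPM in HFD Inpp4b-/-. The groups overlapped through HFD WT replicate 1, and the highest library was HFD Inpp4b-/- replicate 3, one of the pair lowest in Serpina1d and Serpina1e. Its log2 fold change of 0.95 (standard error 0.46) did not pass the test (edgeR's adjusted p = 0.395), and without HFD WT replicate 1 it was 1.63 (adjusted p = 0.103). Its mean was higher in HFD Inpp4b-/- by 253.4 CPM, against a shortfall of 6824 CPM for Serpina1e. Whether reads of one member were counted under another or under Gm8893 was not tested.

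**Figure D5:**
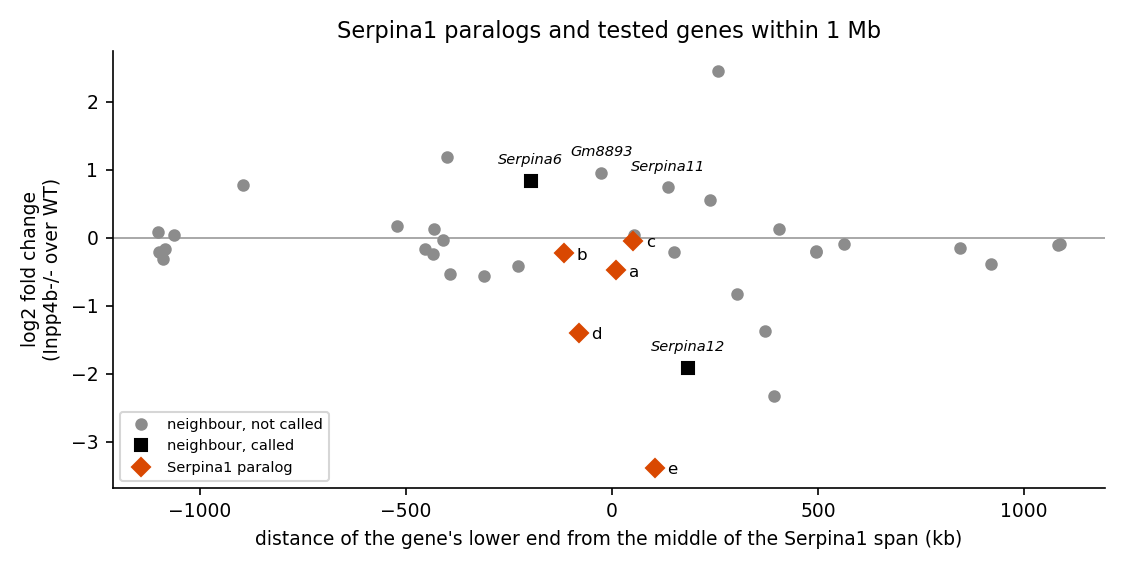
Log2 fold change (Inpp4b-/- over WT) of the 5 Serpina1 paralogs (diamonds, letters a to e) and of the 34 tested neighbours (circles; squares where called) by distance in kb from the middle of the row. Serpina1e (-3.38) had the lowest value in the window, and neighbours on both sides lay above and below 0.

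Other serpins of the liver were fixed as a list of 26, of which 23 were tested. The 2 called were the same Serpina6 and Serpina12, and the median log2 fold change was -0.06. Fitted values were higher for 10 and lower for 13, and DESeq2 called 3 of the list. The serpins named next were picked by role, and not every other gene of the list overlapped between the groups. Serpinc1 (antithrombin), a serpin of hepatocytes coded outside the row, was at 1987 to 2165 CPM in the HFD WT libraries and 2042 to 2226 CPM in the others. Serpina3k, a highly expressed liver serpin in the same neighbourhood, overlapped between the groups (log2 fold change -0.20, edgeR's adjusted p = 0.710), as did Serpina3n (-0.09, adjusted p = 0.881) and Serpina10, the inhibitor of coagulation factor Xa (-0.42, adjusted p = 0.398).

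Messages of the listed proteases and neutrophil markers were at low levels in these livers. Of 15 genes for proteases and neutrophil markers, 6 were in the table and 4 were tested. EdgeR called none of these, with an adjusted p of at least 0.193 in each. DESeq2 called 1 of them, Mmp12 (macrophage elastase), and over all genes edgeR gave 2072 with an unadjusted p under 0.05. Mmp12, named here after its values were seen, was at 0.0737, 0.157, 0.0337 and 0.269 CPM in HFD WT and at 0.444, 0.341, 0.515 and 2.36 CPM in HFD Inpp4b-/-, without overlap. Its log2 fold change was 2.76 (standard error 0.82; edgeR's adjusted p = 0.193, DESeq2's 0.0312), and 1.68 without HFD Inpp4b-/- replicate 4. The other 5 genes in the table overlapped between the groups and reached at most 3.45 CPM (Csf3r, the receptor of a granulocyte growth factor) in any library.

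Among 21 transcription factors known to act on hepatocyte genes of this kind, all tested, 1 was called. Foxa2, a pioneer factor of the liver, rose from 28.6, 27.4, 25.0 and 42.3 CPM in HFD WT to 60.7, 86.2, 54.1 and 74.0 CPM in HFD Inpp4b-/- (log2 fold change 1.16, standard error 0.19, edgeR's adjusted p = 0.0351). The call was lost without HFD Inpp4b-/- replicate 2 or HFD WT replicate 1 (adjusted p up to 0.109). Hnf4a (-0.19, adjusted p = 0.672), Cebpa (0.09, adjusted p = 0.768) and Stat5b (0.26, adjusted p = 0.490) overlapped between the groups.

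Genes that fold, carry, degrade or clear secreted proteins numbered 32, all tested, of which 1 was called lower and 25 were fitted lower (median log2 fold change -0.20). Uggt1, which senses misfolded glycoproteins in the endoplasmic reticulum, fell by 0.44 on the log2 scale, from 106 ± 9.62 to 78.7 ± 6.62 CPM (SD, n = 4 each; edgeR's adjusted p = 0.0964). The call was lost in 7 of the 8 fits that left out a library, the exception being HFD WT replicate 2, with adjusted p up to 0.245. Lman1, the cargo receptor of the early secretory route, was 317.9, 329.2, 320.2 and 296.9 CPM in HFD WT and 261.3, 272.9, 285.9 and 279.2 CPM in HFD Inpp4b-/- and did not pass (edgeR's adjusted p = 0.279). Hspa5, the chaperone BiP, had a log2 fold change of -0.83 (adjusted p = 0.213), and Lrp1, a hepatic receptor for serpin complexes, one of -0.09 (adjusted p = 0.804).

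Alpha-1-antitrypsin is also an acute phase protein in humans, and acute phase genes were spread widely among the HFD WT animals. Of 29 tested, none was called by edgeR, 28 were fitted lower and the median log2 fold change was -0.48, with the lowest adjusted p at 0.175; DESeq2 called 2. Saa1 (serum amyloid A) was at 2225, 46.8, 23.7 and 697.1 CPM in HFD WT and at 33.8, 54.1, 49.4 and 79.7 CPM in HFD Inpp4b-/-. Hp (haptoglobin) was at 5579, 1939, 1573 and 3198 CPM in HFD WT and at 1918 to 2542 CPM in HFD Inpp4b-/-. HFD WT replicates 1 and 4 were the high libraries for both genes, and likewise for Orm1 and Fgb, whereas the library that stood apart for Serpina1e was HFD WT replicate 3, the lowest of the 4 for Saa1 and Hp. The part of the acute phase in the levels of the Serpina1 members was not tested.

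Of 24 tested genes known to be higher in male than in female liver, 6 were called lower and none higher. The list was chosen with earlier results of these data known, so nothing is read from these counts. The median log2 fold change was -0.61, 5 genes were fitted higher, and the other 13 that were fitted lower did not pass the test. The 6 were Mup20 (the major urinary protein darcin), Cyp4a12b, Cyp7b1 (oxysterol hydroxylase), Gstp1, Moxd1 and C6 (complement). Mup20 was at 3898, 1591, 2871 and 1833 CPM in HFD WT and at 274.5, 291.8, 299.5 and 806.3 CPM in HFD Inpp4b-/-, a fall by 2.61 on the log2 scale (edgeR's adjusted p = 0.0327), and the call was lost without HFD Inpp4b-/- replicate 2 or 3 (adjusted p up to 0.125). Unlike Serpina1e, Mup20 was highest in HFD Inpp4b-/- replicate 4. C6, Cyp7b1 and Gstp1 were each lost in 7 of the 8 fits without a library (adjusted p up to 0.212, 0.238 and 0.224), all except that without HFD WT replicate 2, whereas Moxd1 and Cyp4a12b kept their calls in all 8. Of 12 female-biased genes tested, from a list chosen in the same way, 6 were fitted higher and 6 lower, and 1 was called. It was Cyp2b9, at 0.844 to 10.3 CPM in HFD WT and 29.2 to 172.4 CPM in HFD Inpp4b-/- (log2 fold change 4.93, edgeR's adjusted p = 0.0433). That call was lost without HFD Inpp4b-/- replicate 2 or 3 or HFD WT replicate 1 (adjusted p up to 0.121), and without HFD WT replicate 2 the log2 fold change was 6.44.

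Markers of 9 cell types, 34 genes in the table, held 1 called gene. It was Hba-a2 (alpha globin), at 0.806 to 5.09 CPM in HFD WT and 0.236 to 0.582 CPM in HFD Inpp4b-/- (log2 fold change -2.92, edgeR's adjusted p = 0.0570), while its near-identical copy Hba-a1 was at 38.2 to 206.9 and 131.8 to 225.1 CPM. Like the Serpina1 members, these 2 genes have counts that the copying makes uncertain. Summed Kupffer cell markers were at 39.8 to 115.1 CPM in HFD WT and 78.2 to 152.3 CPM in HFD Inpp4b-/-, and their part in the Serpina1 levels was not tested.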

How the data were processed

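Liver RNA of 4 HFD WT and 4 HFD Inpp4b-/- males was sequenced as 150-base paired reads. Per the labels, ribosomal RNA was removed before NEBNext Ultra libraries were made; the study's methods name the NEBNext kit. The authors mapped reads with HISAT2 to GRCm38 and counted them per gene with HTSeq, and they deposited whole-number counts and, in a second table, counts divided by DESeq2 size factors, a signal that was used only to check the counts. Versions, the annotation release, the strand setting and the handling of reads that fit several genes are not given in the sources used here. The authors' fold changes and p-values were not used. All 18095 identifiers matched GENCODE M21.

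Groups follow the labels. Counts were tested with edgeR 4.0.16 in R 4.3.3 (quasi-likelihood test, TMM scaling, filterByExpr, Benjamini-Hochberg adjustment over 14866 genes), and a gene was called at an adjusted p under 0.1 and a fold over 1.3. CPM values are per 1000000 counts after TMM scaling, and CPM per kb divides by the union of annotated exons. The genotype differences of the members are ratios or fitted values without a test. Libraries held 25893430 to 36662531 counts, so that counts of the members, 8500 to 344115 a library, were limited by the spread between libraries and not by depth. Replicates of a group were no near copies (chi-square per degree of freedom 29.7 to 99.7).

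On simulated counts for the 14866 genes of this comparison, 200 genes were changed, all drawn from those that averaged over 50 counts. EdgeR recovered 73 of 100 at 2-fold and 98 of 100 at 4-fold, and 23 of 194 calls were false. Recovery of genes with fewer counts was not tested. Promoters were aligned with MAFFT 7.526. The text names the 5 members in every library, the called genes of each list and at most 4 more by role, and the genes most like Serpina1e by Pearson's r. A few values that this rule covers are not reported here. The members and lists were chosen with earlier results of these data known. Alternatives were DESeq2 1.42.0, its size factors, upper-quartile scaling, total counts (members only), other filters (at least 1 count; at least 10 counts in every library), an adjusted p under 0.05, the longest transcript as the length, a block on the replicate number and fits that each left out 1 library.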

Additional observations from a re-analysis of the deposited data

Results flagged for a closer look

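In 70 groups of 4 libraries, those of the 5 members, the family total and 29 named genes in each genotype, 6 held a library far from the other 3, where chance would give about 3.5. Serpina1e was at 11586 CPM in HFD WT replicate 3 against at most 6404 CPM in the others, and the family total without that library differed between genotypes by -0.99 on the log2 scale in place of -1.11. In HFD Inpp4b-/- replicate 3 the level of Serpina1c was 1428 CPM, and no other library of that group passed 972 CPM. Gm8893, the pseudogene inside the span of Serpina1b, was at 576.1 CPM in HFD WT replicate 1 against at most 192.3 CPM. HFD Inpp4b-/- replicate 4 held 806.3 CPM of Mup20 where the others held up to 299.5 CPM, and 2.358 CPM of Mmp12 where the others held up to 0.515 CPM. Cyp2b9 was at 10.32 CPM in HFD WT replicate 2 against at most 1.659 CPM. The 6 values came from 5 different libraries.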

How the results depend on the processing

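Counts of called genes moved with the tool, the fit and single libraries. Log2 ratios of the members moved by less than 1 SD of the libraries within a genotype in every alternative. That SD was 0.96 for Serpina1e and 0.81 for Serpina1d, a wide limit that leaving out 1 library can hardly pass, so nothing is read from it. Without 1 library the log2 ratios ran from -3.81 to -3.10 for Serpina1e, -1.71 to -1.11 for Serpina1d and -0.22 to 0.03 for Serpina1c. DESeq2 called 688 genes in all, 3 of the 5 members, 3 neighbours, 3 other serpins and 4 transcription factors. It also called 3 secretory genes, 2 acute phase genes, 11 male-biased genes, 5 female-biased genes and 1 gene of the list of proteases and neutrophil markers. At an adjusted p under 0.05 edgeR called 71 genes. The replicate numbers do not pair the animals (correlations of same-numbered libraries from -0.17 to -0.01), and with the replicate block 26 genes were called, with 0 members, 0 neighbours, 0 other serpins, 0 secretory genes and 2 male-biased genes among them, and the log2 ratio was -3.71 for Serpina1e. Upper-quartile scaling and the filter of at least 1 count each called 0 secretory genes. Without 1 library the calls ran from 53 to 345 in all, 1 to 3 for neighbours, 1 to 3 for other serpins, 0 to 2 for transcription factors, 0 to 5 for secretory genes, 0 to 1 for acute phase genes, 2 to 9 for male-biased genes and 0 to 4 for female-biased genes. The fitted sign turned without HFD WT replicate 1 for 3 genes that were not called, whose values without 1 library ran from -0.23 to 0.14 for Serpina3n, -0.19 to 0.017 for Lrp1 and -0.39 to 0.0060 for Fgb. Per length of the longest transcript Serpina1b was at 2583 CPM per kb in HFD WT in place of 1885 and Serpina1a at 1421 in place of 1227, and the order of means was Serpina1e, Serpina1b, Serpina1a, Serpina1d and Serpina1c. The causes were not tested. Sequences were those of the C57BL/6J reference, so the identity of reads among members in these animals, whose strain the sources give in 2 ways, is unknown, and depth did not limit the members.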
